A study of Mus musculus with 6 samples.

Results

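A set of 35 genes that cells switch on when they copy their DNA and divide was followed through the hearts of 6 mice. The genes are a list of names from the known machinery of the cell cycle, chosen with earlier results of these data known, and all 35 were among the 44792 rows of the table. By the step in which each gene is best known, 14 were called DNA replication genes and 21 mitosis genes. The mice were of the C57BL/6 strain, 3 months old and untreated. In 1 group 3 mice were wild type (WT), and in the other 3 mice carried the R193H mutation of cardiac troponin I (cTnI), the subunit that holds heart muscle contraction in check when calcium is low. The labels do not say how the mutation was made, whether it was on 1 or both alleles, or the sex of the mice. Whole heart tissue gave 1 RNA library per mouse, so fewer cycling cells and less RNA per cycling cell cannot be told apart in these values.

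A dividing cell passes through ordered phases. Before DNA synthesis the MCM helicase, a ring of Mcm2 to Mcm7, is loaded on DNA, and cyclin E and its kinase promote entry into synthesis. During synthesis PCNA clamps the polymerase to the template while ribonucleotide reductase and thymidylate synthase supply nucleotides. In mitosis cyclin B and CDK1 drive entry, the Aurora and Polo kinases build the spindle, the BUB proteins check its attachment, and CDC20 and the cytokinesis proteins finish the division. Transcription of the replication genes is classically controlled by E2F factors, and that of the mitosis genes by complexes that bind the CHR element together with NF-Y at CCAAT boxes. Most adult cardiomyocytes have left the cell cycle, so proliferation genes in an adult heart are usually attributed to endothelial, stromal and immune cells.

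The promoters of 6 members are shown to make these elements visible, because the 2 roles compared below are known for different elements. Sequences are the 250 bases before the RefSeq gene start on build GRCm38.p6, on the strand of the gene, with matches to the searched motifs in capitals. The motifs were the E2F forms TTTCCCGC, TTTCGCGC, TTTGCCGC and TTTGGCGC, the CHR forms TTTGAA and TTCGAA, and CCAAT, all on both strands. Mcm5 and Mcm6 are replication genes with E2F matches that partly overlap each other. Mcm6 also has a separate E2F match that begins 47 bases before the start. Cdc20, Cdk1 and Top2a are mitosis genes with CHR and CCAAT matches, and Cenpf is a mitosis gene with CCAAT matches alone.
Mcm5, chr8:75109259-75109508, plus strand: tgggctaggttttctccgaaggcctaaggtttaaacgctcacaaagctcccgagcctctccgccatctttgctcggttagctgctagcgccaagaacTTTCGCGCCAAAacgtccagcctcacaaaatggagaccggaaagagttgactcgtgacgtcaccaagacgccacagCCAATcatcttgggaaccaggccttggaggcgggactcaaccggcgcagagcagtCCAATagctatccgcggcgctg
Mcm6, chr1:128359706-128359955, minus strand: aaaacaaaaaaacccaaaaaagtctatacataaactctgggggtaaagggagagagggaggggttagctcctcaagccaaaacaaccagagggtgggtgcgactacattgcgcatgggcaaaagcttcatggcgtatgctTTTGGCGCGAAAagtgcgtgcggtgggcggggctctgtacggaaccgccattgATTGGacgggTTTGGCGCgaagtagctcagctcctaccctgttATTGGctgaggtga
Cdc20, chr4:118437344-118437593, minus strand: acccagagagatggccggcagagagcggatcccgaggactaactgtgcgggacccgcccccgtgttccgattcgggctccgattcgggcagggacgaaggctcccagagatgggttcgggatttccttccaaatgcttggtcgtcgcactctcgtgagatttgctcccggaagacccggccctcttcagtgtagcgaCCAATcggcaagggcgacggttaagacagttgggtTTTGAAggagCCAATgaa
Cdk1, chr10:69352913-69353162, minus strand: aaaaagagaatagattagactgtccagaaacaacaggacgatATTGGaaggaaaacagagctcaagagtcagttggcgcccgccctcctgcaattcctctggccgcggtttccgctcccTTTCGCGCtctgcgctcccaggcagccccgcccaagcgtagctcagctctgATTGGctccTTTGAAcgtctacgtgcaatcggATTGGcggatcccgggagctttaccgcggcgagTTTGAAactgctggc
Top2a, chr11:99024190-99024439, minus strand: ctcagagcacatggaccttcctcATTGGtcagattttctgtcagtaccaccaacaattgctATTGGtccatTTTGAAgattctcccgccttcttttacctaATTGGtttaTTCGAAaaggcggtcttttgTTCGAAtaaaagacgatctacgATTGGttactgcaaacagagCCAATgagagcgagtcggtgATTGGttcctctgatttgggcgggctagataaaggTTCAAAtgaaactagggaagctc
Cenpf, chr1:189688087-189688336, minus strand: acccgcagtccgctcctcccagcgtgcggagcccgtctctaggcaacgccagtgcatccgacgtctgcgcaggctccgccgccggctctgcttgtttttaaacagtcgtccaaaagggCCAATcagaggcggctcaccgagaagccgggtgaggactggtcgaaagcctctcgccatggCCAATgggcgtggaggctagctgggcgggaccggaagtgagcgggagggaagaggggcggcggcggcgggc

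RefSeq promoters matched 29 of the 35 members, and the shares with each motif were counted by role. An E2F form was found in 4 of 12 replication genes (33.3%), namely Mcm5, Mcm6, Mcm7 and Cdc6, in 1 of 17 mitosis genes (5.88%), namely Cdk1, and in 2.16% of all 27025 genes with a promoter. A CHR form was found in 9 of 17 mitosis genes (52.9%), in 2 of 12 replication genes (16.7%) and in 19.6% of all genes. CCAAT occurred in 15 of 17 mitosis genes (88.2%), in 8 of 12 replication genes (66.7%) and in 37.5% of all genes. All 9 mitosis genes with a CHR form also held a CCAAT, a combination present in 7.93% of all genes. Over the 9919 genes with a promoter that were tested between genotypes, the shares were 3.78% for E2F, 14.1% for CHR and 40.0% for CCAAT. CHR with CCAAT was present in 6.49% of them. In Cdc20 the CHR match began 18 bases before the start, between CCAAT matches at 53 and 8 bases. These are matches of letters in a window, and binding was not measured here.

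No proliferation gene passed the test between genotypes, and 33 of the 35 had enough counts to be tested. The mean was higher in R193H hearts for 11 of 14 replication genes and 13 of 19 mitosis genes, against 49.9% of all 14370 genes tested. The median log2 fold change (R193H over WT) was 0.19 for replication genes and 0.23 for mitosis genes, against -0.00036 for all genes tested. Called members numbered 0 (edgeR's quasi-likelihood test, adjusted p under 0.05), where 0.00696% of all genes tested were called in either direction. At an unadjusted p under 0.05 the count of members was also 0, where 3.22% of all genes passed as higher and 2.51% as lower. DESeq2 likewise called 0 members, where 0.339% of the 12693 genes that it gave an adjusted p were called. It gave none to Birc5, Ccnb1, Cenpe, Plk1, Bub1, Ect2, Aurkb, Ccne1 and Cdc6, so these could not be called. The lowest edgeR adjusted p among members was 0.892. A p that misses the threshold does not show that the genotypes were alike, and the SE of the log2 fold change had a median of 0.23 for replication genes and 0.51 for mitosis genes.

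For mitosis genes the hearts of 1 genotype differed by more than the genotype means did, and for replication genes this was so in R193H hearts but not in WT hearts. On a scale of log2 CPM (read counts divided by the scaled library total, the unit in which all levels here are given) minus the gene's mean over WT hearts, the replication genes averaged 0.066, -0.057 and -0.0097 in WT replicates 1, 2 and 3. The mitosis genes averaged 0.041, -0.52 and 0.48 in the same hearts. The WT hearts were therefore close together for replication genes, with a range of 0.12, and spread over a range of 1.0 for mitosis genes. In R193H replicates 1, 2 and 3 the replication genes averaged 0.094, 0.55 and -0.19, and the mitosis genes 0.25, 0.88 and -0.68. R193H replicate 2 was the highest heart and R193H replicate 3 the lowest for both groups of genes, with ranges of 0.74 and 1.56. The mean over R193H hearts was 0.15 above that over WT hearts for each group of genes, and the WT values lay within the R193H range.

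**Figure D1:**
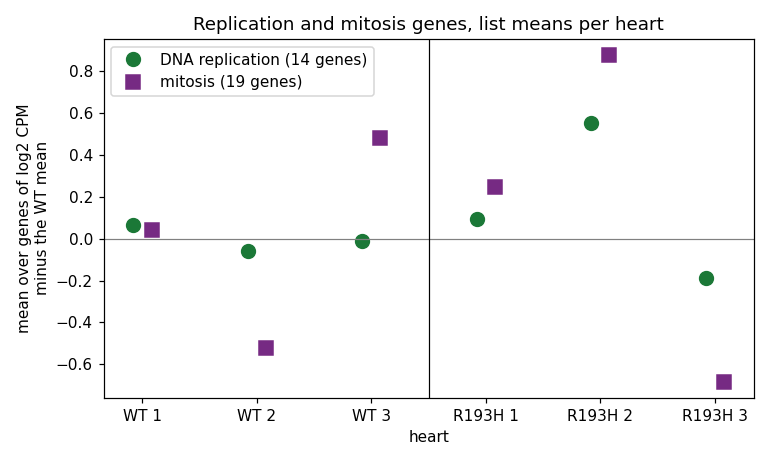
Mean over genes of log2 CPM minus the WT mean (vertical axis) in each of the 6 hearts (horizontal axis), for 14 DNA replication genes (circles) and 19 mitosis genes (squares). Mitosis genes span -0.52 to 0.48 within WT and -0.68 to 0.88 within R193H, while replication genes stay between -0.057 and 0.066 in WT.

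The difference between the lists, replication minus mitosis, was taken in every heart as the direct comparison of the 2 steps. It was 0.025, 0.47 and -0.49 in WT replicates 1, 2 and 3 and -0.15, -0.33 and 0.50 in R193H replicates 1, 2 and 3. The SD was 0.48 in WT hearts, whose mean is the zero of the scale, and the R193H hearts averaged 0.0054 ± 0.43 (SD, n = 3 each). The balance of replication to mitosis varied by a similar SD within each genotype, and the group means differed by far less than that. In WT replicate 2 and R193H replicate 3 mitosis genes were low relative to replication genes, and in WT replicate 3 and R193H replicate 2 they were high. No p is given for these list scores, because the members were chosen with earlier results of the data known.

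Summed over members, the levels give the same order with a known counting error. The 14 replication genes summed to 108, 103 and 107 CPM in WT replicates 1, 2 and 3 and to 113, 146 and 98.3 CPM in R193H replicates 1, 2 and 3. Their exact Poisson 95% intervals, which cover counting error only, ran from 94.2 to 103 CPM in R193H replicate 3 and from 141 to 151 CPM in R193H replicate 2, so these hearts differed beyond counting error. The 21 mitosis genes summed to 57.8, 51.2 and 80.9 CPM in WT and 65.8, 96.1 and 33.1 CPM in R193H hearts. Cenpf alone supplied much of that sum and followed another order of hearts. Without it the other 20 genes summed to 39.3, 21.0 and 51.2 CPM in WT and to 42.1, 65.9 and 18.2 CPM in R193H hearts, a selection made after the values were seen. WT replicate 3 stood 2.43 times above WT replicate 2, and R193H replicate 2 stood 3.62 times above R193H replicate 3. The same pairs of hearts had ratios of 1.03 and 1.49 for the replication sum. The 20 genes averaged 37.2 ± 15.2 CPM over the WT hearts and 42.1 ± 23.8 CPM over the R193H hearts (SD over 3 hearts each).

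Individual genes showed how widely that order was shared. All 19 tested mitosis genes lay above their WT mean in WT replicate 3 and in R193H replicate 2, against 1 in WT replicate 2 and 2 in R193H replicate 3. The R193H hearts stood in the order replicate 3, 1, 2 from low to high for 18 of 19 mitosis genes and 12 of 14 replication genes, against 21.7% of all genes tested. Adding the WT order replicate 2, 1, 3, the whole pattern was present in 11 mitosis genes (57.9%) and 3 replication genes (21.4%), against 3.46% of all genes tested. R193H replicate 2 was the highest of all 6 hearts for 16 of 19 mitosis and 10 of 14 replication genes, where the share over all genes was 23.2%. R193H replicate 3 was the lowest for 11 of 19 and 4 of 14, where the share was 14.8%. These orders were read from the same values and are descriptions.

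**Figure D2:**
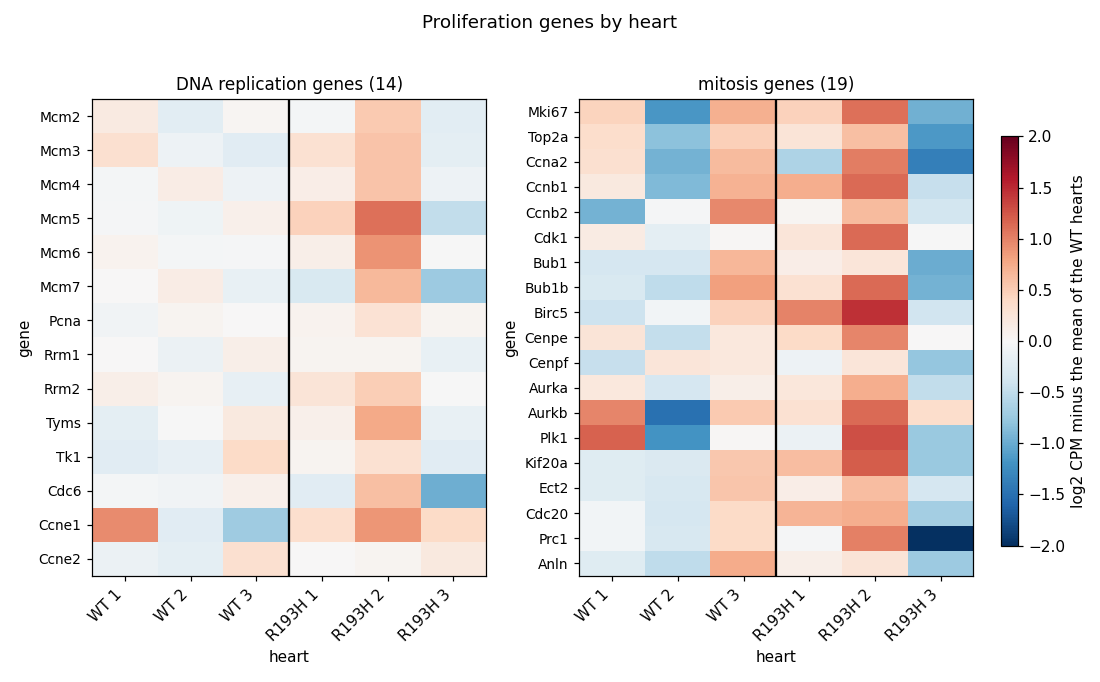
Colour gives log2 CPM minus the mean of the WT hearts for each tested gene (rows) in each heart (columns), with replication genes at left and mitosis genes at right; the colour scale ends at -2 and 2 and the values run from -2.20 to 1.47. Mitosis genes are red in WT 3 and R193H 2 and mostly blue in WT 2 and R193H 3, while most replication genes are pale in the WT hearts.

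The spread within a group can be set beside the counting error of single genes. For mitosis genes the median SD of log2 CPM over 3 hearts was 0.58 in WT and 0.79 in R193H. The SD calculated for counting error alone at these counts had a median of 0.34 and 0.29. For replication genes the median SD was 0.15 in WT and 0.36 in R193H, and the calculated counting SD had a median of 0.19 and 0.16. An SD taken over 3 hearts more often falls below the calculated value than above it, and the constant added before taking logs lowers it somewhat. The lower median of replication genes in WT hearts therefore does not show a spread smaller than counting error. Over all genes tested the median SD was 0.15 in WT and 0.17 in R193H hearts.

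Among the subunits of the MCM helicase, which unwinds DNA ahead of the polymerase, Mcm6 (chromosome 1, 128331590 to 128359664) had the smallest p of the replication genes. It measured 10.9, 10.1 and 10.3 CPM in WT and 11.3, 19.4 and 10.3 CPM in R193H replicates 1, 2 and 3. R193H replicate 2 stood alone, the other 5 hearts lay between 10.1 and 11.3 CPM, and R193H replicate 3 was inside the WT range. The log2 fold change was 0.39 (SE 0.23, edgeR adjusted p = 0.898), and 0.054 without R193H replicate 2. Mcm5 (chromosome 8, 75109569 to 75128439) measured 4.75, 4.55 and 5.16 CPM in WT and 6.70, 10.4 and 3.40 CPM in R193H hearts. Here R193H replicates 1 and 2 lay above and R193H replicate 3 below every WT heart, for a log2 fold change of 0.50 (SE 0.37), or 0.070 without R193H replicate 2. Mcm4 measured 9.79, 11.2 and 9.32 CPM in WT and 11.02, 15.1 and 9.36 CPM in R193H hearts (log2 fold change 0.23, SE 0.18). Mcm3 measured 11.6, 8.61 and 7.91 CPM in WT and 11.4, 13.9 and 8.06 CPM in R193H hearts (0.25, SE 0.22). For Mcm3 and Mcm4 the groups overlapped, with R193H replicate 2 highest. Mcm2 stood at 0.12 (SE 0.20) and Mcm7 at -0.011 (SE 0.35). The promoters of Mcm5 and Mcm6 shown above both hold E2F matches.

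Pcna, the sliding clamp of the DNA polymerases (chromosome 2, 132249162 to 132253314), was the only member whose R193H hearts all lay above all WT hearts. It measured 25.3, 27.6 and 26.8 CPM in WT and 27.9, 32.4 and 27.7 CPM in R193H hearts, so R193H replicate 3 was above WT replicate 2 by a narrow margin. That is 1 of 33 tested members, where 6.02% of all genes tested had all R193H hearts above and 5.8% all below. Its log2 fold change was 0.14 (SE 0.094, edgeR adjusted p = 0.90). Per kilobase of exon Pcna was also the most abundant member, at 11.6 CPM per kb over both groups, followed by Mcm4 at 3.05 and Mcm3 at 2.73. All of the 5 highest levels per kilobase were replication genes, and the highest mitosis gene was Cenpf at 1.59.

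For the genes of nucleotide supply the groups overlapped. Rrm1, the large subunit of ribonucleotide reductase, measured 22.5, 20.7 and 24.2 CPM in WT and 23.2, 23.3 and 20.2 CPM in R193H hearts, overlapping fully (log2 fold change -0.017, SE 0.10, and 0.11 under scaling by library totals). Rrm2, the small subunit whose level follows the S phase, measured 2.34, 2.24 and 1.90 CPM in WT and 2.61, 3.07 and 2.14 CPM in R193H hearts (0.27, SE 0.24). Only R193H replicate 3 kept the Rrm2 groups from standing apart. Tyms, thymidylate synthase, and Tk1, thymidine kinase, stood at 0.28 (SE 0.29) and 0.018 (SE 0.31). Of the genes that prepare replication, Cdc6, the MCM loader, stood at -0.071 (SE 0.44), and the E cyclins Ccne1 and Ccne2 at 0.47 (SE 0.48) and 0.062 (SE 0.23). Ccne1 departed from the other replication genes in WT hearts, with 1.49, 0.606 and 0.401 CPM in replicates 1, 2 and 3, from 21, 10 and 8 counts.

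**Figure D3:**
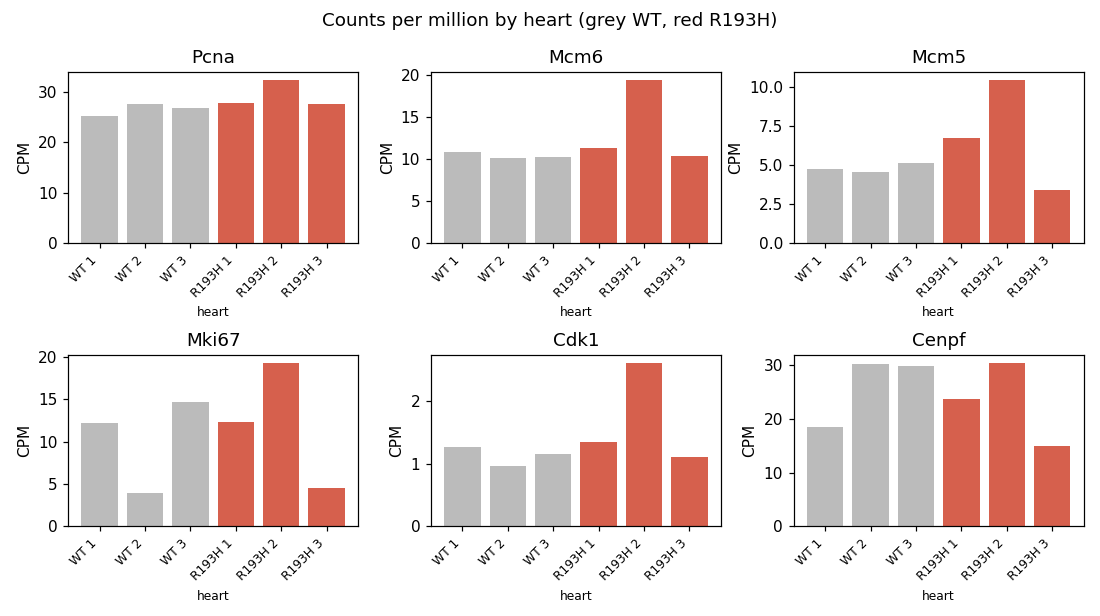
Bars give CPM in each heart (grey WT, red R193H, 1 bar per heart and no error bar) for 3 replication genes in the upper row and 3 mitosis genes in the lower row. Mcm6 stands out in R193H 2 alone at 19.4 CPM, Mki67 is low in WT 2 at 3.94 and R193H 3 at 4.52 CPM, and Cenpf is low in WT 1 at 18.5 CPM.

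Mki67, which encodes the Ki-67 antigen of cycling cells in all active phases (chromosome 7, 135689784 to 135716361), differed widely between hearts. It measured 12.2, 3.94 and 14.6 CPM in WT replicates 1, 2 and 3, from 172, 65 and 292 counts, and 12.3, 19.2 and 4.52 CPM in R193H replicates 1, 2 and 3, from 274, 420 and 97 counts. A low and a high heart thus occurred in each genotype, 3.71 times apart in WT and 4.25 times apart in R193H. The log2 fold change was 0.23 (SE 0.73). It turned to -0.28 without R193H replicate 2 and to -0.16 without WT replicate 2. Top2a, the topoisomerase that untangles sister chromatids, measured 6.24, 2.73 and 6.81 CPM in WT and 5.85, 7.46 and 2.14 CPM in R193H hearts. The same 2 hearts, WT replicate 2 and R193H replicate 3, were low, and the log2 fold change was -0.033 (SE 0.53).

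Among genes of mitotic entry, Cdk1 and the cyclins A2, B1 and B2 all had R193H replicate 2 as the highest and R193H replicate 3 as the lowest R193H heart. Cdk1, the kinase that starts mitosis, measured 1.28, 0.97 and 1.15 CPM in WT and 1.35, 2.61 and 1.12 CPM in R193H hearts. Its high heart was again R193H replicate 2, and it differed little among the other 5 (log2 fold change 0.58, SE 0.37, and 0.13 without R193H replicate 2). Ccnb1, the cyclin partner of CDK1, measured 0.497, 0.182 and 0.751 CPM in WT and 0.764, 1.05 and 0.279 CPM in R193H hearts, from 3 to 23 counts (0.52, SE 0.60). The cyclins Ccnb2 and Ccna2 stood at -0.086 (SE 0.50) and -0.12 (SE 0.72). Ccna2 ranged from 0.838 CPM in R193H replicate 3 to 4.80 CPM in R193H replicate 2. The kinases Aurka, Aurkb and Plk1, which organize the spindle, stood at 0.24, 0.38 and 0.14, with SEs of 0.39, 0.61 and 0.76.

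Among genes of the spindle, its checkpoint and chromosome attachment, Birc5 had the smallest p of the mitosis genes. Birc5 encodes survivin, a subunit of the chromosomal passenger complex, and measured 0.497, 0.667 and 1.002 CPM in WT and 1.48, 2.10 and 0.512 CPM in R193H replicates 1, 2 and 3, from 7 to 46 counts. R193H replicates 1 and 2 were above all WT hearts and R193H replicate 3 was inside the WT range (log2 fold change 0.89, SE 0.51, edgeR adjusted p = 0.892). Cenpe, a kinetochore motor, measured 0.568, 0.303 and 0.551 CPM in WT and 0.630, 1.01 and 0.466 CPM in R193H hearts (0.56, SE 0.47). The checkpoint kinases Bub1 and Bub1b stood at -0.25 (SE 0.53) and 0.26 (SE 0.59). Cdc20, the activator of the anaphase-promoting complex, measured 1.56, 1.27 and 2.15 CPM in WT and 2.65, 2.74 and 0.978 CPM in R193H hearts, so R193H replicates 1 and 2 were highest and R193H replicate 3 lowest (0.34, SE 0.40). The spindle motor gene Kif11 and the spindle assembly gene Tpx2 were not tested, with 3 to 10 and 2 to 7 counts per heart.

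Of all members, Prc1 of the spindle midzone had the widest range between hearts. Prc1, which bundles microtubules between the separating chromosomes, measured 2.41, 2.0 and 3.31 CPM in WT and 2.47, 5.17 and 0.466 CPM in R193H hearts. R193H replicates 2 and 3 were 11.1 times apart, from 113 and 10 counts, with a log2 fold change of 0.064 (SE 0.75). Kif20a, a kinesin of the midzone, measured 1.56, 1.52 and 2.75 CPM in WT and 2.92, 4.48 and 1.07 CPM in R193H hearts (0.52, SE 0.50). R193H replicates 1 and 2 were above and R193H replicate 3 below all WT hearts. Of its exon length 29.3% overlaps exons of Cdc23 on the other strand, and whether the counting used strand is not given in the sources used here, so its level is uncertain. Exons of Ccne2 (17.4%), Ccna2 (12.5%) and Prc1 (11.1%) also overlap genes of the other strand. Ect2 and Anln, regulators of the contractile ring, stood at 0.12 (SE 0.42) and -0.18 (SE 0.39).

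Cenpf was the only 1 of 19 tested mitosis genes whose highest WT heart was replicate 2, against 13 with replicate 3 and 5 with replicate 1. It encodes a large protein of the kinetochore and nuclear matrix (chromosome 1, 189640606 to 189688086) and measured 18.5, 30.2 and 29.7 CPM in WT and 23.7, 30.2 and 14.9 CPM in R193H hearts. Thus WT replicate 2, the lowest WT heart for Mki67 and Top2a, was the highest WT heart for Cenpf, with 498 counts of Cenpf against 65 of Mki67. Within R193H hearts Cenpf kept the order of the other mitosis genes. Its log2 fold change was -0.19 (SE 0.31), and 0.049 without R193H replicate 3. Its promoter shown above holds CCAAT matches and no CHR match, and a link of these motifs to the order of hearts was not tested.

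**Figure D4:**
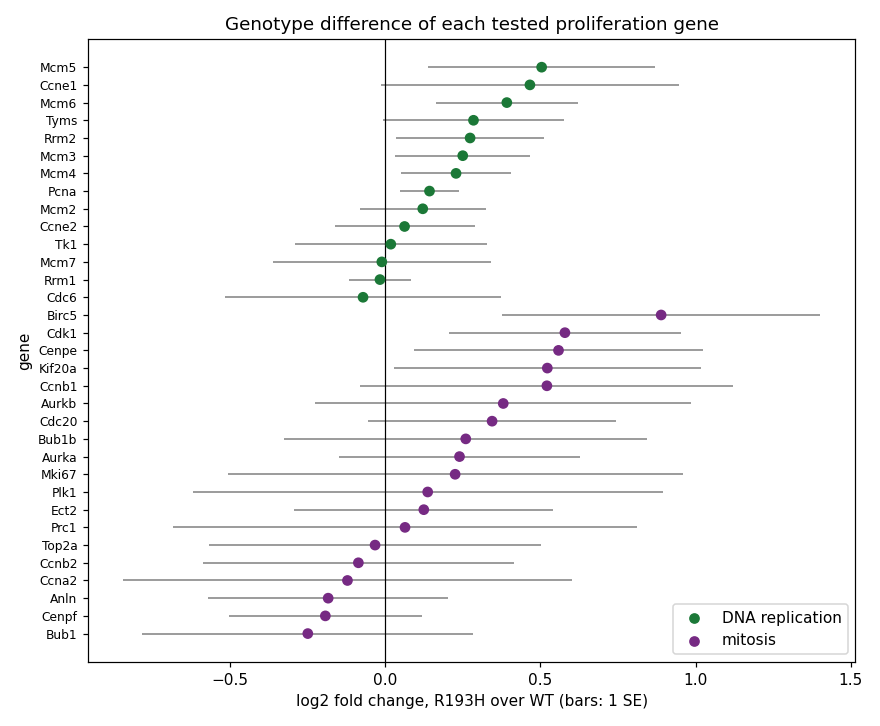
Points give the log2 fold change of R193H over WT (horizontal axis, bars 1 SE, 3 hearts per group) for each of the 33 tested genes (vertical axis), with replication genes above and mitosis genes below. Estimates run from -0.071 to 0.50 for replication genes and from -0.25 to 0.89 for mitosis genes, and none passed the test.

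Genes of the same pathway outside the 35 gave a second view. Among 49 further mitosis genes, 39 were tested, 24 had a higher mean in R193H hearts and 0 were called, with a median log2 fold change of 0.098. Their mean on the relative scale was 0.055, -0.40 and 0.34 in WT and 0.15, 0.60 and -0.57 in R193H replicates 1, 2 and 3. These are the same low and high hearts as among the mitosis members, and 19 of the 39 (48.7%) had the whole pattern of both groups. The first by p were Ncapg2, a condensin subunit (0.41, SE 0.25), Incenp, the scaffold of the passenger complex (0.33, SE 0.21), Spc25 of the kinetochore (0.53, SE 0.40) and Sgol1, which protects sister chromatid cohesion (0.65, SE 0.51). Among 36 further replication genes, 34 were tested, 25 had a higher mean, 0 were called and the median was 0.15. Their mean was 0.069, -0.066 and -0.0030 in WT and 0.10, 0.30 and -0.0092 in R193H hearts, and 2 of 34 (5.88%) had the whole pattern. The first by p were the clamp loader subunit Rfc2 (0.18, SE 0.12), the chromatin assembly factor Chaf1b (0.68, SE 0.51), the primase subunit Prim2 (0.62, SE 0.47) and Dut, which removes dUTP (0.15, SE 0.11).

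A list of genes that control entry into the cycle before DNA synthesis came last. Of its 36 genes 33 were tested, 20 had a higher mean, 0 were called and the median log2 fold change was 0.063. Tfdp2, a partner of E2F, had the smallest p and measured 84.7, 89.8 and 78.9 CPM in WT and 73.7, 60.1 and 70.2 CPM in R193H hearts, with no overlap (log2 fold change -0.31, SE 0.096, edgeR adjusted p = 0.722). Myc, a growth-promoting transcription factor, measured 3.05, 3.21 and 4.31 CPM in WT and 5.26, 5.40 and 5.22 CPM in R193H hearts, also with no overlap (0.58, SE 0.18, edgeR adjusted p = 0.722). Cyclin D1 (Ccnd1) measured 59.5, 60.6 and 60.4 CPM in WT and 67.2, 83.5 and 65.4 CPM in R193H hearts, again apart (0.26, SE 0.10, edgeR adjusted p = 0.794). Its kinase Cdk4 stood at 0.20 (SE 0.10). In all, 2 of the 33 had every R193H heart above every WT heart and 2 had every R193H heart below, against 6.02% and 5.8% of all genes tested.

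Single hearts decided the direction of the mitosis median. It was -0.28 without R193H replicate 2 and -0.081 without WT replicate 2, and 0.53 without R193H replicate 3 or without WT replicate 3. Without R193H replicate 2, 15 of 33 members had a higher mean, against 49.7% of all genes. Without R193H replicate 3 all 33 did, against 51.2% of all genes. In that setting 7 members had an unadjusted p under 0.05 as higher, against 5.18% of all genes, and 0 passed after adjustment (lowest edgeR adjusted p = 0.255, for Mcm5). The replication median stayed above 0 in each of these settings, from 0.036 without R193H replicate 2 to 0.33 without R193H replicate 3. When libraries were scaled by their totals alone, the median over all genes became 0.13. This scaling gave 30 of 33 members a higher mean, where 78.7% of all genes had one, and medians of 0.32 and 0.38 for replication and mitosis genes.

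Markers of other cells that a heart sample holds are given beside these values. All 14 macrophage markers had a higher mean in R193H hearts, against 49.9% of all genes tested. Of these, 11 were higher at an unadjusted edgeR p under 0.05, against 3.22% of all genes. In 7 every R193H heart was above every WT heart, against 6.02%. At an adjusted p under 0.05 edgeR called 0 of them and DESeq2 called 2. The summed level of the macrophage markers was 378 to 446 CPM in WT and 459 to 666 CPM in R193H hearts, and none was at 0 in any heart. On the relative scale they averaged 0.78, 0.93 and 0.32 in R193H replicates 1, 2 and 3, the same highest and lowest heart as the mitosis genes. In WT hearts they ranged only from -0.033 to 0.046 while mitosis genes spanned 1.0. Fibroblast markers averaged -0.024, 0.73 and -0.13 in R193H replicates 1, 2 and 3, also with replicate 2 highest and replicate 3 lowest. They averaged -0.099, 0.054 and 0.046 in the WT replicates, with replicate 1 lowest. Their sum was 1355 to 1606 CPM in WT and 1457 to 2276 CPM in R193H hearts. Of the fibroblast means 10 of 10 were higher, and 0 had an unadjusted edgeR p under 0.05. Epicardial markers averaged 2.07 and 1.25 in R193H replicates 2 and 3 and -0.57 in R193H replicate 1. Their sum was 20.4 to 35.0 CPM in WT and 22.6 to 83.7 CPM in R193H hearts, with 8 of 9 means higher, and Upk1b and Krt8 were at 0 in WT replicate 1. Lymphocyte markers summed to 6.97 to 22.1 CPM in WT and 9.69 to 15.6 CPM in R193H hearts, with 7 of 11 means higher and none at 0. Their relative mean was 0.80, -0.60 and -0.19 in WT replicates 1, 2 and 3. It was 0.54, 0.51 and -0.080 in the R193H replicates, so the lowest heart of each group was that of the mitosis genes. The highest was replicate 1 in each group.

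Erythroid and neutrophil markers shared the low heart of the WT group with the mitosis genes, but not the low heart of the R193H group. On the relative scale, erythroid markers averaged -1.56, -1.13 and -1.36 in R193H replicates 1, 2 and 3, with replicate 1 lowest. Neutrophil markers averaged -0.33, -0.84 and -0.65 in the same hearts, with replicate 2 lowest. Erythroid markers summed to 257 to 3096 CPM in WT and 476 to 630.4 CPM in R193H hearts, with WT replicate 2 lowest. Of the 10 erythroid markers, 5 were at 0 in at least 1 heart, and 0 of the 5 tested had a higher mean. Neutrophil markers summed to 2.30 to 25.6 CPM in WT and 4.76 to 6.25 CPM in R193H hearts, again with WT replicate 2 lowest and 0 of 3 means higher, and Ly6g, Mpo, Elane, Camp and Ngp were at 0 in at least 1 heart. Endothelial markers, at 1405 to 1664 CPM in WT and 1476 to 1708 CPM in R193H hearts, had 9 of 10 higher means and none at 0. They averaged -0.068, -0.087 and 0.15 in WT replicates 1, 2 and 3, the WT order of the mitosis genes over a smaller range. In the R193H replicates they averaged -0.015, 0.19 and 0.074, with replicate 2 highest but replicate 1 lowest. The sums for pericytes and smooth muscle overlapped at their edges, at 2824 to 3012 and 2711 to 2825 CPM, with 7 of 10 means higher and none at 0. These markers averaged 0.0070, 0.27 and -0.13 in R193H replicates 1, 2 and 3, again with replicate 2 highest and replicate 3 lowest. They averaged -0.091, -0.026 and 0.12 in the WT replicates, with replicate 1 lowest. Cardiomyocyte markers, which define the tissue, were present in every heart at 59335 to 63145 CPM in WT and 54558 to 58096 CPM in R193H hearts, with 2 of 12 means higher. Schwann cell and adipocyte markers summed to 9.77 to 35.5 and 12.0 to 28.0 CPM, with 2 of 6 means higher. The part of these cell types in the levels of the proliferation genes was not tested.

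Libraries held 14736067 to 21852210 counts. R193H replicate 2, the highest heart for both groups of proliferation genes, also had the lowest share of mitochondrially encoded counts, at 30.9% against 35.2% to 36.8% in the other 5 hearts. The part of this share in the proliferation values was not tested.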

How the data were processed

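The authors deposited 1 table of raw read counts per gene symbol, with a column for each of 6 hearts. The submitters' processing notes name HISAT2 2.0.4 and the build GRCm38. Which counting program and annotation were used, and whether counting used strand, is not given in the sources used here. Each column bears the title of its sample, and the genotype label set the groups. Replicate numbers only name the hearts and follow the order of listing. Every pair of hearts within a group differed beyond sampling noise, and the series calls them biological repeats.

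The test was edgeR 4.0.16 in R 4.3.3, run on the 14370 genes kept by filterByExpr, with TMM scaling and the robust quasi-likelihood fit of genotype with no covariate. SE is the log2 fold change divided by the square root of F. Benjamini-Hochberg adjustment covered all genes tested (threshold 0.05). CPM means counts per TMM-scaled library total times 1000000, and log2 CPM has a prior count of 2. In these libraries 3 counts, the limit that a count of 0 allows, were 0.135 to 0.213 CPM. Exon lengths, overlaps and gene coordinates came from GENCODE M21 (GRCm38). The marker symbols Adgre1 and Epb42 were matched by synonym. The fit was tested on simulated data.

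The members and lists were chosen with earlier results of these data known. Members given by heart were Mki67, Top2a, Pcna and, in each role list, the 6 smallest p and 2 highest CPM. In each further pathway list the 4 smallest p were named. Ccna2, Ccne1 and Prc1 were given by heart after their values were seen. Alternatives were other scalings and filters, DESeq2 1.42.0, limma-voom (limma 3.58.1), leaving out mitochondrial genes and each heart in turn.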

Additional observations from a re-analysis of the deposited data

How the results depend on the processing

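No paired analysis was possible because the labels give the hearts no shared numbers. Over all genes, edgeR called 1 gene, no member, and this count was 38 without a filter on low counts, 43 in DESeq2, 0 without mitochondrially encoded genes (edgeR, 806 at an unadjusted p under 0.05, and 43 in DESeq2 with all genes) and 3 to 21 with 1 heart left out. The count of members called was 0 in each of these 13 alternatives. The count of members with a higher mean, 24 of 33, ranged from 15 to 33 with 1 heart left out. The medians ranged from 0.036 to 0.33 for replication genes and from -0.28 to 0.53 for mitosis genes, and their difference from -0.37 to 0.32. Without a filter, which adds Kif11 and Tpx2, the mitosis median was 0.13, and without Cenpf, an alternative chosen after seeing the data, it was 0.23. With at least 1 heart left out, signs turned for 7 of 14 replication and 13 of 19 mitosis genes, and under library totals for 3 of each. Among the genes the naming rule gives, these were Top2a (-0.39 to 0.34, and 0.11 under library totals), Rrm1 (-0.074 to 0.056, and 0.11), Mki67 (-0.28 to 0.63) and Cenpf (-0.44 to 0.049). The cause was not tested. The tested mitosis genes had a median of 28 counts per heart, which limits what their single values can show.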
